A study of Mus musculus with 12 samples.

Results

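Expression of 37 genes of glucose and lactate transport, glycolysis and the response to low oxygen was followed in mouse Eµ-Myc B cell lymphoma cells. These were taken from lymph nodes in models of 2 routes of spread, and from culture. The genes were listed by role and matched by mouse symbol to the Ensembl gene IDs of the count files, and all 37 were found among 56748 IDs. They comprise 2 glucose transporters, 11 genes of upper glycolysis, 5 of lower glycolysis, 5 of lactate and pyruvate handling, 3 for hypoxia-inducible factor (HIF) and its oxygen sensors, and 11 other hypoxia-induced genes. Of these, 34 passed the filter on low counts and stand among the 13535 genes tested; Ldhb, Egln3 and P4ha2 did not pass and are described by their counts.

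Glycolysis splits glucose into pyruvate in the cytosol, and proliferating B cells and lymphomas are known for running it fast and releasing the product as lactate. HIF is a transcription factor whose alpha subunit is hydroxylated by oxygen-using EGLN enzymes and then degraded; when oxygen is short it persists, binds a short core sequence in DNA and raises transcription of glucose transporters, glycolytic enzymes, lactate exporters and genes of mitophagy and collagen folding. MYC, the oncoprotein that drives Eµ-Myc lymphoma, also binds a related core and is known to raise many glycolytic genes.

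The cells came from 12 poly(A) RNA libraries in 3 groups of 4. The lymphatic group was sorted from lymph nodes on day 11 after tumour injection, in a model of spread through lymphatic vessels. The hematogenous group was sorted from lymph nodes on day 18 after injection, in a model of spread through the blood. The culture group was taken directly from cell culture. In Eµ-Myc mice the Myc transgene is driven by the immunoglobulin heavy chain enhancer in the B lineage, and all 3 groups carry it. Route and day cannot be told apart, since each route was sampled on a single day. The labels give neither the strain, age or number of the host mice, nor the sort gate, nor whether the line is a single clone, and do not say whether replicates came from separate animals or cultures. P-values therefore measure the spread between these libraries, which may be technical. The tissue label reads lymph node for the culture libraries too, and their group was taken from the titles.

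Libraries held 5286775 to 25302016 counts assigned to genes. Summed B cell markers (Cd79a, Cd79b, Pax5, Ebf1 and Cd22, all 5 detected in each group) stood at 1318 to 1787 CPM (counts scaled to library size, with TMM factors) in lymphatic libraries, 2389 to 2518 CPM in hematogenous libraries and 1762 to 1794 CPM in culture libraries. These markers did not move together. Cd79b was lowest in culture (means of 482.5 CPM in lymphatic, 631 CPM in hematogenous and 269 CPM in culture cells). Cd22 was lowest in lymphatic cells (210 CPM, 409 CPM and 420 CPM in the same order). Cd79a, Pax5 and Ebf1 also had their lowest means in lymphatic cells, and their highest in hematogenous cells. The 7 T cell markers summed to 16.5 to 70.05 CPM in lymphatic libraries, 4.74 to 13.6 CPM in hematogenous libraries and 0 to 0.544 CPM in culture libraries, where Cd3d, Trbc2, Cd4 and Cd8a were at 0. The 7 macrophage and monocyte markers summed to 30.6 to 67.2 CPM in lymphatic libraries, 27.2 to 33.2 CPM in hematogenous libraries and 12.7 to 17.5 CPM in culture libraries, with Lyz2, C1qa and C1qb at 0 in culture. Csf1r was the largest part in culture, at a mean of 8.54 CPM against 3.76 CPM in lymphatic and 1.49 CPM in hematogenous cells. The means of the other markers of this list were lowest in culture. Stromal markers summed to at most 0.807 CPM in any library, with Col3a1 and Pdgfrb at 0 in both groups from lymph nodes. The 4 endothelial markers summed to 80.2 to 115 CPM in lymphatic libraries, 139.6 to 168 CPM in hematogenous libraries and 75.5 to 80.2 CPM in culture libraries. Nearly all of this was Pecam1, which leukocytes also express (means of 98.8 CPM in lymphatic, 154 CPM in hematogenous and 75.7 CPM in culture cells), while Prox1 was at 0 in both groups from lymph nodes. The 4 NK cell markers summed to 0.406 to 3.09 CPM in lymphatic libraries, 0 to 0.783 CPM in hematogenous libraries and 18.7 to 22.7 CPM in culture libraries, with Ncr1 and Gzma at 0 in culture. Nearly all of the culture sum was Klrb1c, at a mean of 20.2 CPM against 0.738 CPM in lymphatic and 0.222 CPM in hematogenous cells. Ncr1, Gzma and Prf1 instead had their highest means in lymphatic cells (0.0721, 0.384 and 0.582 CPM). The 3 plasma cell markers summed to 17.8 to 36.3 CPM in lymphatic libraries, 8.55 to 16.9 CPM in hematogenous libraries and 25.9 to 33.5 CPM in culture libraries. Most of this was Sdc1 (means of 24.4 CPM in lymphatic, 11.8 CPM in hematogenous and 29.1 CPM in culture cells). Jchain instead was lowest in culture (2.90 CPM, 0.552 CPM and 0.190 CPM in the same order), and Prdm1 averaged at most 0.550 CPM in any group. Neutrophil, dendritic cell and erythroid markers summed to at most 9.28 CPM in any library. The part of such other cells in the results below was not tested. Lymphatic library 4 stood apart: cytosolic ribosomal protein genes took 16.1% of its counts, against 7.62 to 9.91% in the other 11 libraries. For the listed genes, calls that its removal adds, and called fold changes that its removal moves by more than 1.5 times, are given with and without it.

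Most of the genes were lower in lymphoma cells from lymph nodes than in culture, and lower after blood-borne than after lymphatic spread. Against culture, 22 of 34 genes fell and 1 rose in lymphatic cells (edgeR quasi-likelihood test, adjusted p threshold 0.05), where 13.0% of all tested genes fell and 13.4% rose. In hematogenous cells 27 of 34 fell and 1 rose against culture, where 13.9% of all tested genes fell and 13.9% rose. Between routes, 20 of 34 were higher and 1 was lower in lymphatic than in hematogenous cells, against 11.4% and 10.9% of all tested genes. The median log2 fold change of the 34 genes was -0.55 in lymphatic cells against culture, -1.24 in hematogenous cells against culture and 0.62 in lymphatic against hematogenous cells, while over all tested genes it was 0.04 in lymphatic cells against culture, -0.00 in hematogenous cells against culture and 0.03 in lymphatic against hematogenous cells. Falls of at least 2-fold numbered 8 in lymphatic cells (5.6% of all tested genes) and 23 in hematogenous cells (6.87%), and 9 genes were at least 2-fold higher in lymphatic than in hematogenous cells (4.01%). The contrasts with culture share the same 4 culture libraries. In bulk RNA, fewer cells making a transcript and less transcript per cell cannot be told apart.

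Library by library, the 37 genes together took 9701, 8523, 11132 and 13749 CPM in the lymphatic libraries, 5709, 6651, 6200.1 and 5329 CPM in the hematogenous libraries and 14427, 13968, 13140.2 and 12719 CPM in the culture libraries. All 4 hematogenous libraries lay below every other library, while lymphatic library 4 reached into the culture range. Gene by gene, all 4 hematogenous libraries lay below all 4 culture libraries in 28 of 34 genes (21.8% of all tested genes) and above them in 2 (21.8%). All 4 lymphatic libraries lay below all 4 culture libraries in 20 genes (15.5%) and above them in 1 (14.6%). Lymphatic libraries lay wholly above hematogenous libraries in 16 genes (11.5%) and wholly below in 1 (13.1%).

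**Figure D1:**
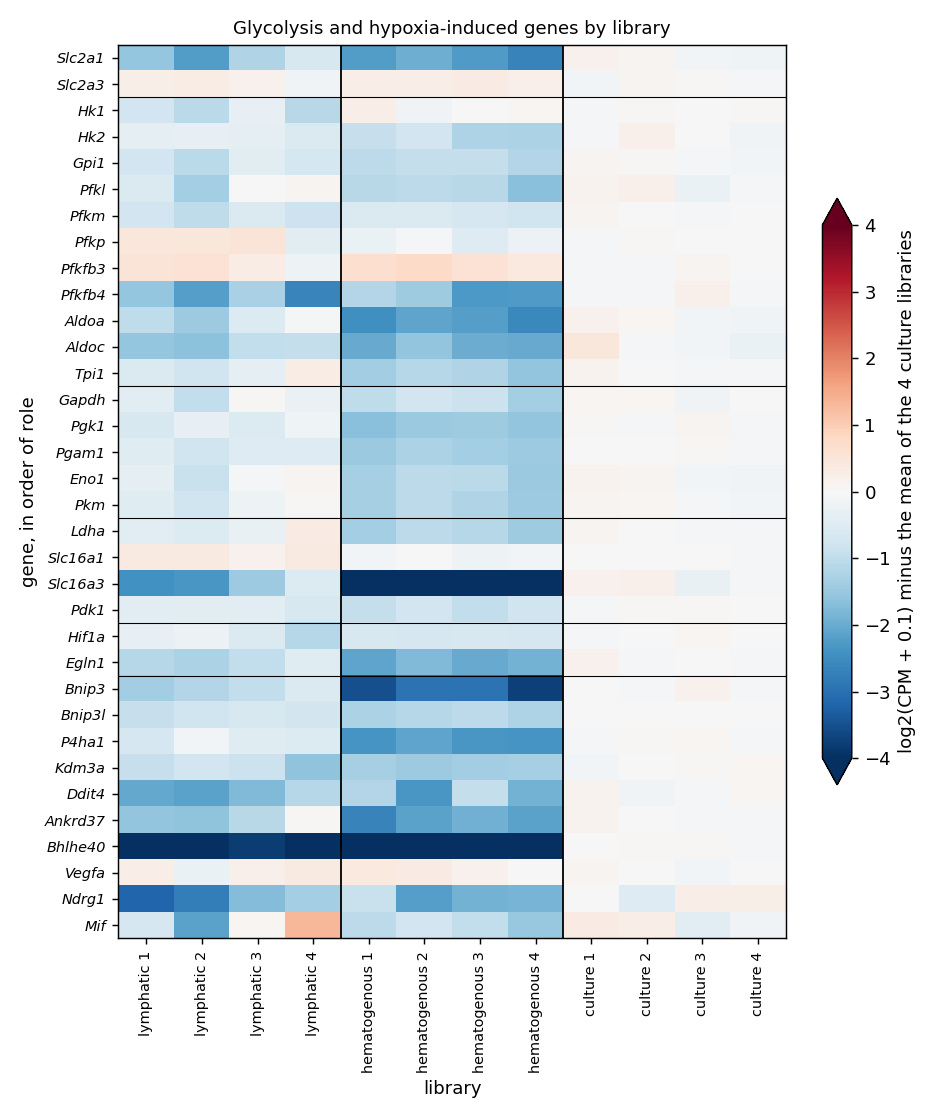
Level of each of the 34 tested genes (rows, by role) in each of the 12 libraries (columns: lymphatic, hematogenous, culture), as log2(CPM + 0.1) minus the culture mean of the gene, with the colour scale ending at 4 in either direction. The hematogenous columns are the lowest for most rows, Bhlhe40 in libraries from lymph nodes and Slc16a3 in hematogenous libraries lie at or near the end colour, and Slc2a3, Vegfa and Slc16a1 stay near the culture level.

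The DNA that HIF reads can be looked at directly upstream of these genes. RefSeq promoter windows on GRCm38.p6, running 250 bases before to 50 bases after each start site, were matched by symbol for 33 of the 37 genes, and Slc2a3, Bhlhe40, Bnip3l and Ndrg1 had none. They were searched on both strands for ACGTG and GCGTG, the cores of the hypoxia response element. At least 1 core stood in a window of 31 of 33 genes (93.9%), against 46.7% of 27025 genes in the table. Window by window, 39 of 49 (79.6%) held a core, against 43.8% of 32851. The E-box CACGTG, which MYC binds and which contains ACGTG, stood in 6 of 33 genes (18.2%), against 8.09% of all genes. These windows were also richer in G and C, with a median of 62.3% against 52.7% over all windows, and the part of base composition in these shares was not tested. The genes were listed partly as known HIF targets, so a larger share with a core is partly built into the list. The comparison took all genes of the promoter table, not only those tested for expression, and genes with more windows had more chances to hold a core. The genes with a window but no core were Gpi1 and Tpi1. A match is a description of letters and not of binding.

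The windows of 6 genes are printed 5′ to 3′ along the strand of the gene, with every ACGTG or GCGTG on either strand in capitals (on the opposite strand these read CACGT and CACGC). Slc16a3, Bnip3, P4ha1 and Egln1 are shown as examples of the genes that fell to 25.9% or less of their culture means in hematogenous cells. Slc2a1, Aldoa, Aldoc and Ankrd37, whose windows are not printed, fell as far, and 1 of the Aldoa windows holds no core. Ldha is shown because it is the most abundant of the genes per kilobase of annotated exon, and Slc16a1 because no fall was called for it.
Slc16a3, chr11:120948817-120949116, plus strand: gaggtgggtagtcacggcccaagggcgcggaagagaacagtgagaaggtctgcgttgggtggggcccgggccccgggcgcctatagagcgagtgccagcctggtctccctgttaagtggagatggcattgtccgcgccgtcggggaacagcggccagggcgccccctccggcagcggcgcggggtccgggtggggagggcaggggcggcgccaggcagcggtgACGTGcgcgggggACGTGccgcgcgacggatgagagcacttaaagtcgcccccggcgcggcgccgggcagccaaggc
Bnip3, chr7:138909457-138909756, minus strand: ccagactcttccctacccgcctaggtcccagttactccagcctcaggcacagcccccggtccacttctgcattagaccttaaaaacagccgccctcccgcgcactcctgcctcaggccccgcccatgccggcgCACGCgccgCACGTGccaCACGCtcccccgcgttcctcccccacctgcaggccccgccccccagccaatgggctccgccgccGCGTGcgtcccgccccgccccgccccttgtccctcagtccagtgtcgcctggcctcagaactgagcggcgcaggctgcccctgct
P4ha1, chr10:59323046-59323345, plus strand: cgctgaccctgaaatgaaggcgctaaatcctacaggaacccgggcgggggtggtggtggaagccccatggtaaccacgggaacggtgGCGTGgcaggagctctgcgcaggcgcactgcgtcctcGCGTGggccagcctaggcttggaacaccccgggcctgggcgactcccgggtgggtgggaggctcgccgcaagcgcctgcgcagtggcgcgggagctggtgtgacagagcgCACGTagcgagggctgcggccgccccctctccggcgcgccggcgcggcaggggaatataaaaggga
Egln1, chr8:124949205-124949504, minus strand: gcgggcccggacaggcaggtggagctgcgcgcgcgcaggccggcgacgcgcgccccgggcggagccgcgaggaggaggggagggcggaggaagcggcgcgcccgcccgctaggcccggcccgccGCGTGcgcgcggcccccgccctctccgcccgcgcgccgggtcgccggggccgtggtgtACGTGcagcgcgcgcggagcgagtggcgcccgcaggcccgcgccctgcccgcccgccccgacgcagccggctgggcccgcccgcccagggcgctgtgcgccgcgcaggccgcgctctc
Ldha, chr7:46845554-46845853, plus strand: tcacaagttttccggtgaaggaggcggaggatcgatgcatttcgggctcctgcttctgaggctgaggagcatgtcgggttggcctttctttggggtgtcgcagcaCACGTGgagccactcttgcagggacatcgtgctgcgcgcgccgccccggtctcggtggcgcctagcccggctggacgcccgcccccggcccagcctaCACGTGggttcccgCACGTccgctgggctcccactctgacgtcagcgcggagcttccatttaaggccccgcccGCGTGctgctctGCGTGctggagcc
Slc16a1, chr3:104638414-104638713, plus strand: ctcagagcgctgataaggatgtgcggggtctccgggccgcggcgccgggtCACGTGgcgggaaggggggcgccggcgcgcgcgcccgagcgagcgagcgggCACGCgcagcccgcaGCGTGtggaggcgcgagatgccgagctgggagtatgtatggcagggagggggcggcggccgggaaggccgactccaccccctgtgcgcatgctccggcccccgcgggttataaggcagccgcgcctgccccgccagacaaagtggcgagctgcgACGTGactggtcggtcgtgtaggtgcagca

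Positions are those of the leftmost printed base of a match, with the start site at 0. The Slc16a3 window holds ACGTG at -27 and again at -14 from the start site, both on the gene's strand and neither inside an E-box. In Bnip3 a CACGTG at -108 stands between GCGTG cores at -117 and -99 on the opposite strand, with another at -35 on the gene's strand. The Ldha window holds CACGTG at -145 and at -48 and a further ACGTG at -34 on the opposite strand. Slc16a1, for which no fall was called, also holds a CACGTG at -200 and GCGTG cores at -149 and -134.

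Glucose uptake showed a called change in 1 of its 2 transporters with all libraries. Slc2a1, the GLUT1 transporter for basal glucose uptake, stood at 18.7, 11.6, 23.7 and 35.1 CPM in the lymphatic libraries, 11.6, 14.0, 11.3 and 8.55 CPM in the hematogenous libraries and 62.1, 58.5, 50.1 and 48.7 CPM in the culture libraries. No lymphatic or hematogenous library reached the lowest culture library, and the lymphatic range, widest of the groups, overlapped the hematogenous range. Slc2a1 fell in lymphatic cells (log2 fold change -1.30 ± 0.26, adjusted p = 0.00219) and in hematogenous cells (log2 fold change -2.26 ± 0.27, adjusted p = 2.72e-05) against culture, and was higher in lymphatic than in hematogenous cells (log2 fold change 0.96 ± 0.27, adjusted p = 0.0212). The call of Slc2a1 between routes was lost without hematogenous library 1, 3 or 4, each left out alone (adjusted p = 0.0543 to 0.0651). The limma-voom test, a fit of only the 8 libraries compared, and a fit with the replicate number as a block also lost it (adjusted p = 0.0617 to 0.0749). Without lymphatic library 4 it held, at a log2 fold change of 0.62 ± 0.21 (adjusted p = 0.0317). Slc2a3, which encodes the high-affinity transporter GLUT3, stood at 48.6, 51.0, 46.1 and 37.8 CPM in the lymphatic libraries, 49.6, 49.7, 52.3 and 47.3 CPM in the hematogenous libraries and 38.2, 44.8, 43.1 and 39.6 CPM in the culture libraries. All hematogenous libraries lay above all culture libraries for Slc2a3, and the lymphatic range overlapped both. The differences were small and no contrast passed the test with all libraries: log2 0.15 ± 0.11 in lymphatic cells against culture, 0.27 ± 0.12 in hematogenous cells against culture and -0.12 ± 0.11 between routes. The hematogenous difference of Slc2a3 passed as a rise without lymphatic library 4 (log2 fold change 0.27 ± 0.08, adjusted p = 0.0159) and with only the 8 libraries compared (adjusted p = 0.0116).

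In upper glycolysis, which spends ATP to turn glucose into triose phosphates, 7 of 11 genes fell and none rose in lymphatic cells against culture. In hematogenous cells 8 fell and 1 rose, and between routes 5 were higher and 1 lower in lymphatic cells. Over all tested genes, 13.0% fell and 13.4% rose in lymphatic cells, and 13.9% fell and 13.9% rose in hematogenous cells. Between routes, 11.4% of all tested genes were higher and 10.9% lower in lymphatic cells. Aldoa, the main aldolase, stood at 361, 265, 496 and 686 CPM in the lymphatic libraries, 132, 169, 159.8 and 122 CPM in the hematogenous libraries and 822, 763, 679 and 662 CPM in the culture libraries. All hematogenous libraries lay far below the rest, and lymphatic library 4 reached into the culture range. Aldoa fell to 19.9% of its culture mean in hematogenous cells (log2 fold change -2.33 ± 0.24, adjusted p = 5.85e-06) and to 61.8% in lymphatic cells (log2 fold change -0.69 ± 0.23, adjusted p = 0.0373). It was higher in lymphatic than in hematogenous cells (log2 fold change 1.63 ± 0.23, adjusted p = 0.000351). The call of Aldoa in lymphatic cells against culture was lost without lymphatic library 1 or 2, hematogenous library 1 or culture library 1, 2, 3 or 4, each left out alone (adjusted p = 0.0509 to 0.0947), and with only the 8 libraries compared or the replicate block (adjusted p = 0.0851 and 0.0611). Aldoc, a minor aldolase, also fell in lymphatic (log2 fold change -1.34 ± 0.26, adjusted p = 0.00182) and hematogenous cells (log2 fold change -1.995 ± 0.29, adjusted p = 0.000123). It was low throughout, at 1.70 ± 0.452 CPM in lymphatic cells, 1.06 ± 0.192 CPM in hematogenous cells and 4.27 ± 1.02 CPM in culture (SD, n = 4 each). Its hematogenous level rests on 43 counts over the 4 libraries.

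Tpi1, which interconverts the triose phosphates, averaged 678 ± 237 CPM in lymphatic cells, 337 ± 45.6 CPM in hematogenous cells and 838 ± 64.3 CPM in culture (SD, n = 4 each). It fell in hematogenous cells (log2 fold change -1.31 ± 0.20, adjusted p = 0.000165) and was higher in lymphatic than in hematogenous cells (log2 fold change 1.01 ± 0.19, adjusted p = 0.00253). Against culture its lymphatic log2 fold change of -0.31 ± 0.19 did not pass (adjusted p = 0.269), but passed without lymphatic library 4 (log2 fold change -0.58 ± 0.11, adjusted p = 0.000979). Gpi1, which isomerises glucose 6-phosphate, averaged 490.2 ± 90.2 CPM in lymphatic cells, 396 ± 29.7 CPM in hematogenous cells and 809 ± 51.1 CPM in culture, and fell in lymphatic (log2 fold change -0.72 ± 0.13, adjusted p = 0.000965) and hematogenous cells (log2 fold change -1.03 ± 0.13, adjusted p = 3.78e-05). Between routes its log2 fold change of 0.31 ± 0.13 passed, of 20 alternatives tried, only without lymphatic library 2 (adjusted p = 0.0207; with it, 0.102).

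The hexokinases, which phosphorylate incoming glucose, moved differently. Hk2, the form known to be induced by HIF and MYC, stood at 107, 113, 110.0 and 94.6 CPM in the lymphatic libraries, 74.2, 82.1, 59.7 and 57.9 CPM in the hematogenous libraries and 137, 161, 138 and 127 CPM in the culture libraries. The 3 groups did not overlap, with hematogenous libraries lowest and culture libraries highest. Hk2 fell in lymphatic (log2 fold change -0.41 ± 0.13, adjusted p = 0.0298) and hematogenous cells (log2 fold change -1.04 ± 0.13, adjusted p = 3.43e-05), and was higher in lymphatic than in hematogenous cells (log2 fold change 0.63 ± 0.13, adjusted p = 0.00354). The call of Hk2 in lymphatic cells against culture was lost without lymphatic library 1 or culture library 1, 2 or 3, each left out alone (adjusted p = 0.0564 to 0.102), and with no filter on low counts (adjusted p = 0.0828). Hk1, the housekeeping form, stood at 8.25, 6.58, 11.2 and 6.47 CPM in the lymphatic libraries, 16.9, 12.6, 14.2 and 14.6 CPM in the hematogenous libraries and 13.4, 14.4, 13.8 and 14.4 CPM in the culture libraries. Here the lymphatic libraries were the lowest, and hematogenous and culture libraries overlapped. Hk1 fell in lymphatic cells (log2 fold change -0.79 ± 0.18, adjusted p = 0.00537), had a log2 fold change of 0.06 ± 0.18 in hematogenous cells against culture (adjusted p = 0.848), and was the only gene of the 34 called lower in lymphatic than in hematogenous cells (log2 fold change -0.85 ± 0.18, adjusted p = 0.00447).

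The phosphofructokinase subunits, which catalyse the committed step, also split. Pfkl, the liver-type subunit, averaged 133 ± 53.4 CPM in lymphatic cells, 72.7 ± 13.4 CPM in hematogenous cells and 170.4 ± 23.6 CPM in culture, and fell in hematogenous cells (log2 fold change -1.22 ± 0.26, adjusted p = 0.00243) and was higher in lymphatic than in hematogenous cells (log2 fold change 0.87 ± 0.25, adjusted p = 0.0268). The call of Pfkl between routes was lost without lymphatic library 3 or hematogenous library 1, 3 or 4, each left out alone (adjusted p = 0.0529 to 0.0832). It was also lost with limma-voom, with only the 8 libraries compared and with the replicate block (adjusted p = 0.0630 to 0.0721). Pfkm, the muscle-type subunit, fell in lymphatic (log2 fold change -0.79 ± 0.12, adjusted p = 0.000218) and hematogenous cells (log2 fold change -0.66 ± 0.12, adjusted p = 0.000698), with -0.13 ± 0.12 between routes (adjusted p = 0.453). Pfkp, the platelet-type subunit, stood at 317, 321, 331 and 173 CPM in the lymphatic libraries, 195, 220.4, 162 and 198 CPM in the hematogenous libraries and 219.8, 242, 237 and 236 CPM in the culture libraries. The other 3 lymphatic libraries were the highest of all 12 for Pfkp, while lymphatic library 4 lay below the culture range and within the hematogenous range. With all libraries Pfkp passed between routes alone (log2 fold change 0.56 ± 0.17, adjusted p = 0.0343). The call of Pfkp there was lost without lymphatic library 1, 2 or 3 or hematogenous library 1, 3 or 4, each left out alone (adjusted p = 0.0691 to 0.105). The same 3 alternatives as for Pfkl lost it too (adjusted p = 0.0580 to 0.0985). It also passed, with lymphatic library 4 left out, as a rise in lymphatic cells (log2 fold change 0.46 ± 0.09, adjusted p = 0.000802) and as a fall in hematogenous cells against culture (log2 fold change -0.27 ± 0.08, adjusted p = 0.0159), and as that fall with only the 8 libraries compared (adjusted p = 0.0102).

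Pfkfb3 and Pfkfb4 make and remove fructose 2,6-bisphosphate, the activator of phosphofructokinase, and their calls in hematogenous cells went opposite ways. Pfkfb3, the strongly activating form, stood at 74.1, 77.9, 63.9 and 45.3 CPM in the lymphatic libraries, 82.7, 88.0, 76.8 and 68.0 CPM in the hematogenous libraries and 50.1, 48.8, 56.2 and 52.1 CPM in the culture libraries. All hematogenous libraries lay above all culture libraries, and the lymphatic range overlapped both. Pfkfb3 rose in hematogenous cells (log2 fold change 0.61 ± 0.15, adjusted p = 0.00867), the only gene of the 34 called higher there, and had a log2 fold change of 0.33 ± 0.15 in lymphatic cells (adjusted p = 0.129, or 0.00196 without lymphatic library 4). Pfkfb4 was low throughout, at 2.35 ± 0.987 CPM in lymphatic cells, 2.57 ± 1.05 CPM in hematogenous cells and 8.62 ± 0.922 CPM in culture, and fell in lymphatic (log2 fold change -1.90 ± 0.32, adjusted p = 0.000580) and hematogenous cells (log2 fold change -1.70 ± 0.32, adjusted p = 0.00119).

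Lower glycolysis makes ATP and pyruvate from triose phosphates. All 5 of its genes fell in hematogenous cells against culture, all 5 were higher in lymphatic than in hematogenous cells, and 2 of 5 (Pgk1 and Pgam1) fell in lymphatic cells against culture. Over all tested genes these shares were 13.9%, 11.4% and 13.0%. Pgk1, an ATP-making kinase of the pathway, stood at 574, 716, 616 and 798 CPM in the lymphatic libraries, 284, 321, 334 and 302 CPM in the hematogenous libraries and 925, 858, 974 and 860.2 CPM in the culture libraries. The 3 groups did not overlap, with hematogenous libraries lowest and culture libraries highest. Pgk1 fell in hematogenous (log2 fold change -1.54 ± 0.12, adjusted p = 3.84e-07) and lymphatic cells (log2 fold change -0.42 ± 0.12, adjusted p = 0.0163), and differed between routes (log2 fold change 1.12 ± 0.12, adjusted p = 4.57e-05). The call of Pgk1 in lymphatic cells against culture was lost without lymphatic library 1 or culture library 3, each left out alone (adjusted p = 0.0508 to 0.0523), and with no filter on low counts (adjusted p = 0.0616). Pgam1, which moves the phosphate of phosphoglycerate, fell to 38.3% of its culture mean in hematogenous cells (log2 fold change -1.38 ± 0.10, adjusted p = 2.23e-07) and to 67.1% in lymphatic cells (log2 fold change -0.57 ± 0.10, adjusted p = 0.000683).

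Eno1, the main enolase, averaged 1436 ± 409.9 CPM in lymphatic cells, 731 ± 103 CPM in hematogenous cells and 1715 ± 174 CPM in culture. It fell in hematogenous cells (log2 fold change -1.23 ± 0.19, adjusted p = 0.000208) and was higher in lymphatic than in hematogenous cells (log2 fold change 0.97 ± 0.19, adjusted p = 0.00251). Pkm, which encodes pyruvate kinase, averaged 1983 ± 484 CPM in lymphatic cells, 1045 ± 133 CPM in hematogenous cells and 2491 ± 178 CPM in culture. It too fell in hematogenous cells (log2 fold change -1.25 ± 0.16, adjusted p = 5.07e-05) and was higher in lymphatic than in hematogenous cells (log2 fold change 0.92 ± 0.16, adjusted p = 0.00139). In lymphatic cells against culture neither passed with all libraries (log2 -0.26 ± 0.19 for Eno1 and -0.33 ± 0.16 for Pkm). Without lymphatic library 4, Pkm passed as a fall (log2 fold change -0.48 ± 0.13, adjusted p = 0.00862). Gapdh, usually among the most abundant transcripts of a cell, was counted at only 51.0 ± 14.3 CPM in lymphatic cells, 33.6 ± 5.81 CPM in hematogenous cells and 66.3 ± 4.72 CPM in culture. It fell in hematogenous cells (log2 fold change -0.97 ± 0.19, adjusted p = 0.00141) and was higher in lymphatic than in hematogenous cells (log2 fold change 0.59 ± 0.19, adjusted p = 0.0370). The call of Gapdh between routes was lost without lymphatic library 1 or 3, hematogenous library 1, 3 or 4 or culture library 1 or 2, each left out alone (adjusted p = 0.0511 to 0.108). Further losses came with limma-voom, with only the 8 libraries compared and with the replicate block (adjusted p = 0.0702 to 0.0992). In lymphatic cells against culture Gapdh passed, of the 20 alternatives, only without lymphatic library 3 (adjusted p = 0.0360; with it, 0.152). The older GENCODE annotation holds pseudogenes named after Gapdh, Aldoa, Pgk1, Pgam1, Ldha and Mif (2 each) and after Bnip3l (1). Only pseudogenes that carry the symbol of the gene were counted, so others, of these or other listed genes, may be missed. Reads of genes with pseudogenes can be shared or lost in counting, and their levels are uncertain.

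**Figure D2:**
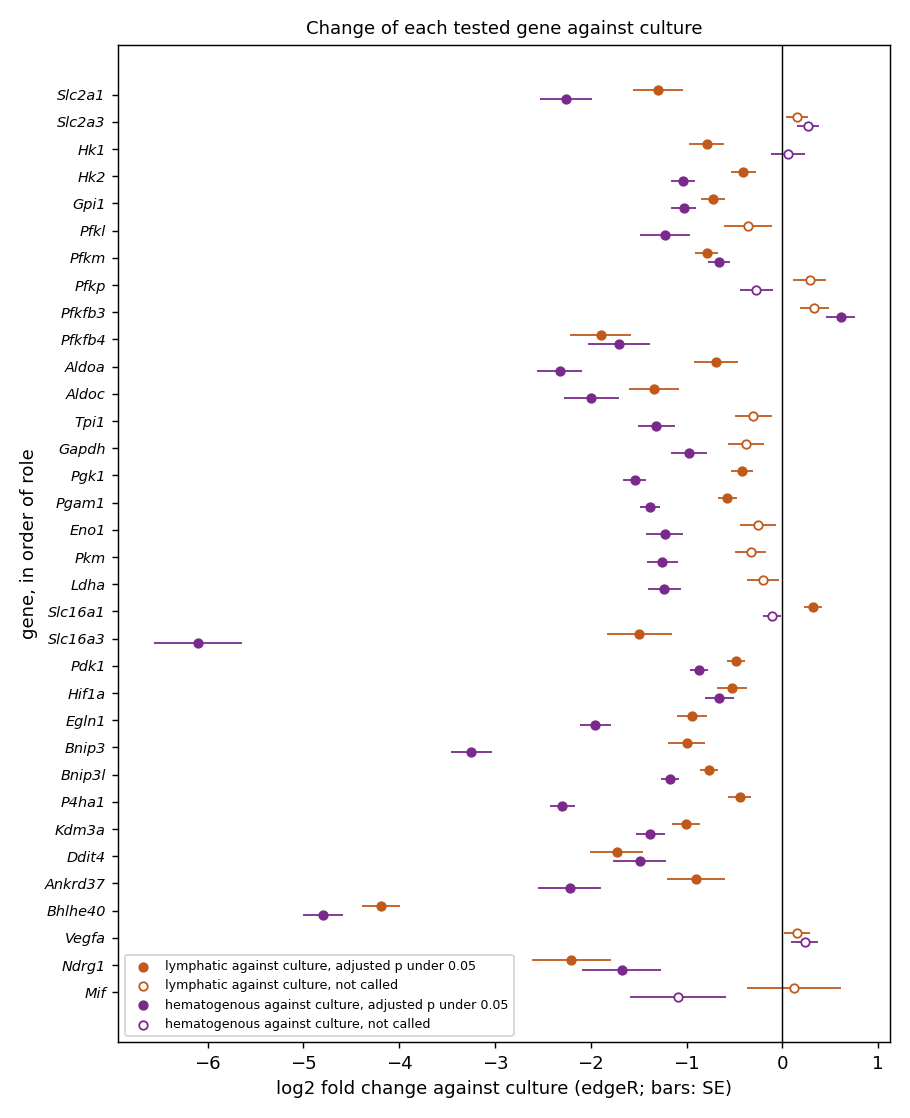
Log2 fold change against culture of each tested gene (rows, by role), with the lymphatic and the hematogenous estimate side by side, bars of 1 standard error and filled points for adjusted p under 0.05 (edgeR). Most hematogenous points lie left of the lymphatic points; Slc16a3 at -6.10, Bhlhe40 at -4.80 and Bnip3 at -3.25 lie farthest left, and Pfkfb3 at 0.61 is the only filled hematogenous point above 0.

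Among the genes of lactate and pyruvate handling, the lactate exporter Slc16a3 had the largest fall of all 34 genes in hematogenous cells. Slc16a3 encodes MCT4, the low-affinity carrier through which glycolytic cells release lactate. It stood at 17.4, 18.3, 34.0 and 63.6 CPM in the lymphatic libraries, 1.28, 2.02, 1.08 and 0.760 CPM in the hematogenous libraries and 104, 107, 76.5 and 87.9 CPM in the culture libraries. The raw counts in the hematogenous libraries were 16, 24, 11 and 4, so its level there rests on few reads. The groups did not overlap. Slc16a3 fell in hematogenous cells (log2 fold change -6.10 ± 0.46, adjusted p = 3.34e-07) to 1.37% of its culture mean. In lymphatic cells it fell to 35.5% (log2 fold change -1.49 ± 0.34, adjusted p = 0.00525). It was higher in lymphatic than in hematogenous cells (log2 fold change 4.61 ± 0.45, adjusted p = 2.99e-05). Without lymphatic library 4, the highest of its group, the log2 fold change was -2.03 against culture and 4.05 between routes, both still past the test.

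Slc16a1, which encodes MCT1, the carrier that passes lactate both ways, stood at 727, 731, 628 and 722 CPM in the lymphatic libraries, 519, 569.5, 488 and 521 CPM in the hematogenous libraries and 574, 568, 568 and 545 CPM in the culture libraries. Lymphatic libraries lay above all others, and hematogenous and culture libraries overlapped. Slc16a1 was the only gene of the 34 that rose in lymphatic cells against culture (log2 fold change 0.32 ± 0.09, adjusted p = 0.0223). The call of Slc16a1 in lymphatic cells was lost without lymphatic library 1 or culture library 1, 2, 3 or 4, each left out alone (adjusted p = 0.0524 to 0.0695). No filter on low counts, only the 8 libraries compared and the replicate block lost it as well (adjusted p = 0.0521 to 0.135). It was higher in lymphatic than in hematogenous cells (log2 fold change 0.42 ± 0.09, adjusted p = 0.00582, or 0.0515 with no filter on low counts), and had a log2 fold change of -0.10 ± 0.09 in hematogenous cells against culture (adjusted p = 0.465). Ldha, the lactate-forming dehydrogenase, stood at 1972, 1830.2, 2185 and 3358 CPM in the lymphatic libraries, 1041, 1309, 1230.0 and 998 CPM in the hematogenous libraries and 2881, 2720.4, 2624 and 2527 CPM in the culture libraries. Hematogenous libraries were the lowest, and lymphatic library 4 exceeded every culture library. Ldha fell in hematogenous cells (log2 fold change -1.23 ± 0.17, adjusted p = 0.000104) and was higher in lymphatic than in hematogenous cells (log2 fold change 1.03 ± 0.17, adjusted p = 0.00105). In lymphatic cells against culture it did not pass (log2 -0.20 ± 0.17, adjusted p = 0.420), but did without lymphatic library 4 (log2 fold change -0.44 ± 0.10, adjusted p = 0.00323).

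Pdk1, the kinase that closes pyruvate dehydrogenase and keeps pyruvate out of mitochondria, averaged 203 ± 14.7 CPM in lymphatic cells, 156 ± 11.3 CPM in hematogenous cells and 284 ± 9.81 CPM in culture. It fell in lymphatic (log2 fold change -0.48 ± 0.09, adjusted p = 0.00192) and hematogenous cells (log2 fold change -0.87 ± 0.09, adjusted p = 1.04e-05) and was higher in lymphatic than in hematogenous cells (log2 fold change 0.39 ± 0.09, adjusted p = 0.0101). This last call was lost with no filter on low counts and with only the 8 libraries compared (adjusted p = 0.0860 and 0.0512). Ldhb, the lactate-using dehydrogenase, was almost silent, with 10 counts over the 4 lymphatic libraries, 8 over the hematogenous libraries and 0 over the culture libraries, where 3 counts would be 0.0820 CPM. No fold is given for it. Counting limits of this kind cover counting error only.

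HIF itself was read from the transcript of its alpha subunit, although the protein is set mainly by its breakdown. Hif1a stood at 121, 129, 101 and 68.9 CPM in the lymphatic libraries, 97.4, 94.4, 97.4 and 95.0 CPM in the hematogenous libraries and 146, 149.6, 158 and 152 CPM in the culture libraries. Both groups from lymph nodes lay below all culture libraries, and overlapped each other. Hif1a fell in lymphatic (log2 fold change -0.53 ± 0.15, adjusted p = 0.0217) and hematogenous cells (log2 fold change -0.66 ± 0.15, adjusted p = 0.00537), with 0.13 ± 0.15 between routes (adjusted p = 0.573, or 0.0173 without lymphatic library 4). The call of Hif1a in lymphatic cells against culture was lost without culture library 3 or 4, each left out alone (adjusted p = 0.0539 to 0.0557), and with only the 8 libraries compared (adjusted p = 0.0691).

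Egln1, the main HIF prolyl hydroxylase and itself a HIF target, stood at 40.0, 37.2, 45.1 and 63.2 CPM in the lymphatic libraries, 20.3, 26.0, 22.01 and 23.7 CPM in the hematogenous libraries and 100.2, 83.6, 87.4 and 84.8 CPM in the culture libraries. The 3 groups did not overlap. Egln1 fell in lymphatic (log2 fold change -0.94 ± 0.16, adjusted p = 0.000580) and hematogenous cells (log2 fold change -1.95 ± 0.16, adjusted p = 9.12e-07) and was higher in lymphatic than in hematogenous cells (log2 fold change 1.01 ± 0.16, adjusted p = 0.000730). Egln3, another hydroxylase of the family and a HIF target, had 3 counts over the 4 lymphatic libraries, 0 over the hematogenous libraries and 29 over the culture libraries. Its pooled culture level was 10.5 times a floor of 3 counts over the hematogenous group. That ratio leaves out the counting error of the 29 culture counts and the spread between culture libraries (0.430 to 1.39 CPM), so it is not a firm lower bound.

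Of the other hypoxia-induced genes, 8 of 10 tested fell in lymphatic cells and 8 in hematogenous cells against culture, none rose, and 4 were higher in lymphatic than in hematogenous cells. Over all tested genes, 13.0% fell in lymphatic and 13.9% in hematogenous cells, 13.4% and 13.9% rose, and 11.4% were higher between routes. Bnip3, a mitophagy receptor, stood at 35.4, 41.7, 46.9 and 62.8 CPM in the lymphatic libraries, 8.03, 12.0, 11.9 and 6.84 CPM in the hematogenous libraries and 93.1, 87.6, 104 and 88.8 CPM in the culture libraries. The hematogenous libraries formed a separate low group, and lymphatic libraries lay between them and culture. Bnip3 fell to 10.4% of its culture mean in hematogenous cells (log2 fold change -3.25 ± 0.21, adjusted p = 9.93e-08) and to 50.04% in lymphatic cells (log2 fold change -0.999 ± 0.19, adjusted p = 0.00156). Between routes it was higher in lymphatic cells (log2 fold change 2.25 ± 0.21, adjusted p = 2.03e-05). Its relative Bnip3l, also a mitophagy receptor, averaged 87.3 ± 7.07 CPM in lymphatic cells, 65.7 ± 4.27 CPM in hematogenous cells and 148 ± 2.95 CPM in culture, and fell in lymphatic (log2 fold change -0.77 ± 0.09, adjusted p = 4.85e-05) and hematogenous cells (log2 fold change -1.17 ± 0.10, adjusted p = 6.76e-07), and was higher in lymphatic than in hematogenous cells (log2 fold change 0.41 ± 0.09, adjusted p = 0.00770, or 0.0748 with no filter on low counts).

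P4ha1, a collagen prolyl hydroxylase, stood at 83.1, 121, 94.0 and 90.2 CPM in the lymphatic libraries, 25.6, 30.4, 26.0 and 25.5 CPM in the hematogenous libraries and 127, 136, 141 and 126 CPM in the culture libraries. No library of any group reached another group. P4ha1 fell in hematogenous cells (log2 fold change -2.30 ± 0.13, adjusted p = 2.63e-08) and by less in lymphatic cells (log2 fold change -0.45 ± 0.12, adjusted p = 0.0156, or 0.0508 with no filter on low counts), with 1.85 ± 0.13 between routes (adjusted p = 1.90e-06), which tests that difference. P4ha2, its paralog, had 13 counts over the lymphatic libraries, 1 over the hematogenous libraries and 25 over the culture libraries. Ankrd37, a small HIF target of little-known function, averaged 18.3 ± 11.3 CPM in lymphatic cells, 7.37 ± 1.55 CPM in hematogenous cells and 34.2 ± 2.20 CPM in culture. It fell in hematogenous (log2 fold change -2.22 ± 0.33, adjusted p = 0.000165) and lymphatic cells (log2 fold change -0.90 ± 0.31, adjusted p = 0.0433) and was higher in lymphatic than in hematogenous cells (log2 fold change 1.32 ± 0.32, adjusted p = 0.0106). The lymphatic fall was larger with lymphatic library 4 left out (log2 fold change -1.44 ± 0.17, adjusted p = 7.14e-06), and the difference between routes smaller (log2 fold change 0.79 ± 0.17, adjusted p = 0.00290). The call of Ankrd37 in lymphatic cells against culture was lost without lymphatic library 1, 2 or 3, hematogenous library 2, 3 or 4 or culture library 1, 2, 3 or 4, each left out alone (adjusted p = 0.0526 to 0.105), and with only the 8 libraries compared (adjusted p = 0.0901).

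Bhlhe40, a transcriptional repressor induced by hypoxia and by other signals, fell to 5.50% of its culture mean in lymphatic cells and to 3.66% in hematogenous cells. It stood at 3.11, 3.83, 5.36 and 4.33 CPM in the lymphatic libraries, 1.69, 3.11, 3.03 and 3.23 CPM in the hematogenous libraries and 74.0, 78.2, 78.4 and 71.6 CPM in the culture libraries. Every lymph node library lay below the lowest culture library by more than the spread of any group. Both falls passed the test (lymphatic log2 fold change -4.19 ± 0.20, adjusted p = 1.05e-08; hematogenous -4.80 ± 0.21, adjusted p = 3.15e-09), and the difference between routes did not pass (log2 fold change 0.61 ± 0.21, adjusted p = 0.0538), except without lymphatic library 1 (adjusted p = 0.0306) and with the DESeq2 Wald test (adjusted p = 0.0298). Ddit4, an inhibitor of mTORC1 signalling, averaged 28.7 ± 9.72 CPM in lymphatic cells, 33.7 ± 13.9 CPM in hematogenous cells and 94.9 ± 8.10 CPM in culture, and fell in lymphatic (log2 fold change -1.73 ± 0.28, adjusted p = 0.000400) and hematogenous cells (log2 fold change -1.49 ± 0.28, adjusted p = 0.000967). Ndrg1, a stress-response gene, was low at 1.29 ± 0.773 CPM in lymphatic cells, 1.80 ± 0.845 CPM in hematogenous cells and 5.86 ± 1.34 CPM in culture, and fell in lymphatic (log2 fold change -2.20 ± 0.41, adjusted p = 0.00132) and hematogenous cells (log2 fold change -1.68 ± 0.41, adjusted p = 0.00719).

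Kdm3a, a histone demethylase that uses oxygen, averaged 112 ± 25.9 CPM in lymphatic cells, 86.2 ± 3.99 CPM in hematogenous cells and 224 ± 12.3 CPM in culture. It fell in lymphatic (log2 fold change -1.004 ± 0.15, adjusted p = 0.000230) and hematogenous cells (log2 fold change -1.38 ± 0.15, adjusted p = 1.06e-05), and passed between routes, of the 20 alternatives, only without lymphatic library 4 (log2 fold change 0.52 ± 0.08, adjusted p = 9.08e-05; with it, adjusted p = 0.0869). Vegfa, the angiogenic growth factor, stood at 52.5, 36.1, 49.8 and 55.1 CPM in the lymphatic libraries, 56.4, 54.8, 49.1 and 44.1 CPM in the hematogenous libraries and 47.0, 43.9, 40.2 and 42.9 CPM in the culture libraries. Its groups overlapped and no contrast passed with all libraries: log2 0.15 ± 0.14 in lymphatic and 0.23 ± 0.14 in hematogenous cells against culture, and -0.08 ± 0.14 between routes. With only the 8 libraries compared, the hematogenous difference of Vegfa passed as a rise (log2 fold change 0.24, adjusted p = 0.0367). Mif, a cytokine known as a HIF target, stood at 139, 50.5, 235 and 563 CPM in the lymphatic libraries, 107, 131, 112 and 77.3 CPM in the hematogenous libraries and 279, 269.6, 161 and 201 CPM in the culture libraries. For Mif, lymphatic library 4 was the highest and lymphatic library 2 the lowest of all 12, and every hematogenous library lay below every culture library. Mif passed in no contrast with all libraries (adjusted p = 0.885 in lymphatic and 0.129 in hematogenous cells against culture, and 0.0984 between routes). Without lymphatic library 4 it passed as a fall in hematogenous cells (log2 fold change -1.08 ± 0.32, adjusted p = 0.0123). Its log2 fold change between routes was then 0.38 ± 0.34 (adjusted p = 0.423), against 1.21 ± 0.50 with that library. Without lymphatic library 2 it passed in hematogenous cells against culture (adjusted p = 0.0288) and between routes (adjusted p = 0.0103). With no filter on low counts it passed in both of these contrasts (adjusted p = 3.76e-09 and 4.48e-11), and with only the 8 libraries compared in hematogenous cells against culture (adjusted p = 1.55e-05). The lymphatic and hematogenous libraries of Mif overlapped, and the lymphatic coefficient of variation was 90.6%. The calls of Mif thus depend on the filter and on single libraries, and the small p-values do not settle them.

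**Figure D3:**
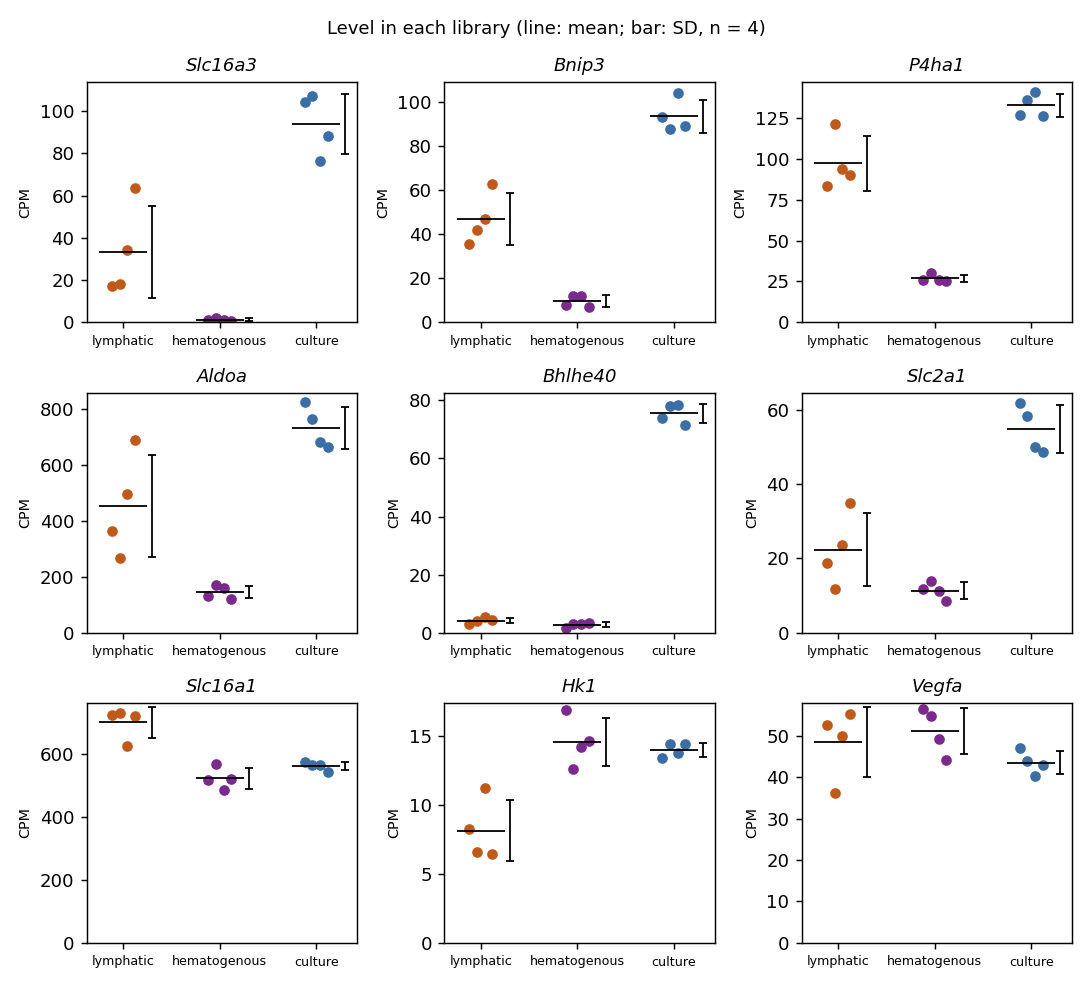
CPM of 9 of the genes in each library (points), with the mean (line) and SD (bar) of each group of 4, for lymphatic, hematogenous and culture cells. Slc16a3, Bnip3, P4ha1, Aldoa and Slc2a1 have their lowest mean in hematogenous cells, Bhlhe40 is low in both groups from lymph nodes, Hk1 is lowest in lymphatic cells, and the hematogenous and culture points of Slc16a1 and the 3 groups of Vegfa overlap.

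Levels of different genes were compared per kilobase of exon, with lengths from an older annotation. The length joins all annotated exons of a gene and can exceed that of a single transcript, by an amount that differs between genes. Ldha was the highest of the 37 in every group, at 706 ± 211 CPM per kb in lymphatic cells, 346 ± 44.9 CPM per kb in hematogenous cells and 812 ± 45.6 CPM per kb in culture (SD, n = 4 each). Pkm followed in every group, at 396 ± 96.8 CPM per kb in lymphatic cells, 209 ± 26.5 CPM per kb in hematogenous cells and 498 ± 35.5 CPM per kb in culture. Pgk1, Eno1, Tpi1 and Mif came next in each group, in an order that differed between groups, all above Aldoa and Pgam1.

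Within families of paralogs, the share of each was computed per kilobase. Slc2a1 made up 48.4 ± 14.1% of the 2 glucose transporters in lymphatic cells, 31.8 ± 3.99% in hematogenous cells and 73.1 ± 2.81% in culture. It was the larger part in every culture library and the smaller part in every hematogenous library, and lymphatic libraries ranged widely (32.1 to 65.7%). Slc16a3 made up 3.79 ± 2.31% of the 2 monocarboxylate transporters in lymphatic cells, 0.201 ± 0.0717% in hematogenous cells and 12.1 ± 1.56% in culture, without overlap between groups. Bnip3 made up 47.2 ± 5.01% of Bnip3 plus Bnip3l in lymphatic cells, 19.8 ± 3.58% in hematogenous cells and 51.7 ± 1.78% in culture. Hk1 made up 5.06 ± 1.16% of the 2 hexokinases in lymphatic cells, 13.2 ± 2.37% in hematogenous cells and 6.53 ± 0.594% in culture. Pfkfb4 made up 5.27 ± 1.89% of the 2 PFKFB enzymes in lymphatic cells, 4.70 ± 1.52% in hematogenous cells and 20.5 ± 0.925% in culture. These shares restate the levels above and were not tested on their own.

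**Figure D4:**
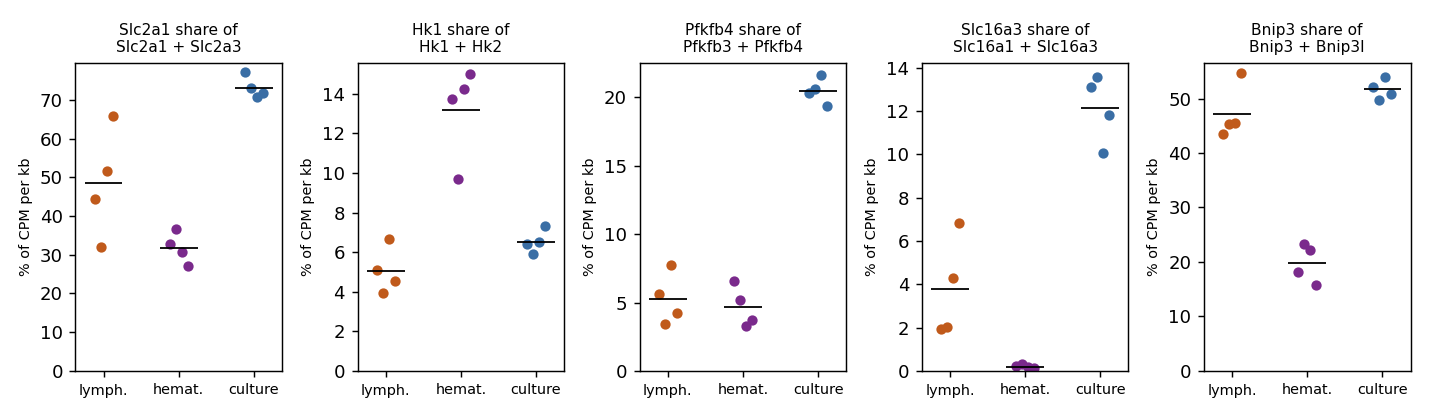
Share of each paralog within its family, in percent of CPM per kb, in each library (points), with the mean of each group of 4 (line), for lymphatic, hematogenous and culture cells. Slc2a1, Slc16a3 and Bnip3 have their smallest mean share in the hematogenous libraries, where Hk1 has its largest.

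By role, the means of the summed levels had the same order of groups in all 6 roles, hematogenous lowest and culture highest. The 2 glucose transporters took 68.2 ± 4.34 CPM in lymphatic cells, 61.1 ± 3.67 CPM in hematogenous cells and 96.3 ± 6.78 CPM in culture. Their lymphatic and hematogenous libraries overlapped (62.7 to 72.9 CPM and 55.8 to 63.6 CPM). The 5 genes of lower glycolysis took 4337 ± 950.3 CPM in lymphatic cells, 2229 ± 259.8 CPM in hematogenous cells and 5461 ± 357 CPM in culture. Upper glycolysis took 2253 ± 441 CPM in lymphatic cells, 1344 ± 128 CPM in hematogenous cells and 3056 ± 207 CPM in culture. Lactate and pyruvate handling took 3275 ± 709 CPM in lymphatic cells, 1826 ± 167 CPM in hematogenous cells and 3629 ± 168 CPM in culture. The 11 other hypoxia-induced genes took 691 ± 234 CPM in lymphatic cells, 392 ± 32.9 CPM in hematogenous cells and 1080.5 ± 42.5 CPM in culture. Mif, which passed in no contrast with all libraries, made up 247 CPM, 107 CPM and 228 CPM of these means. HIF and its sensors took 152 ± 15.4 CPM in lymphatic cells, 119 ± 1.13 CPM in hematogenous cells and 241 ± 6.34 CPM in culture.

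**Figure D5:**
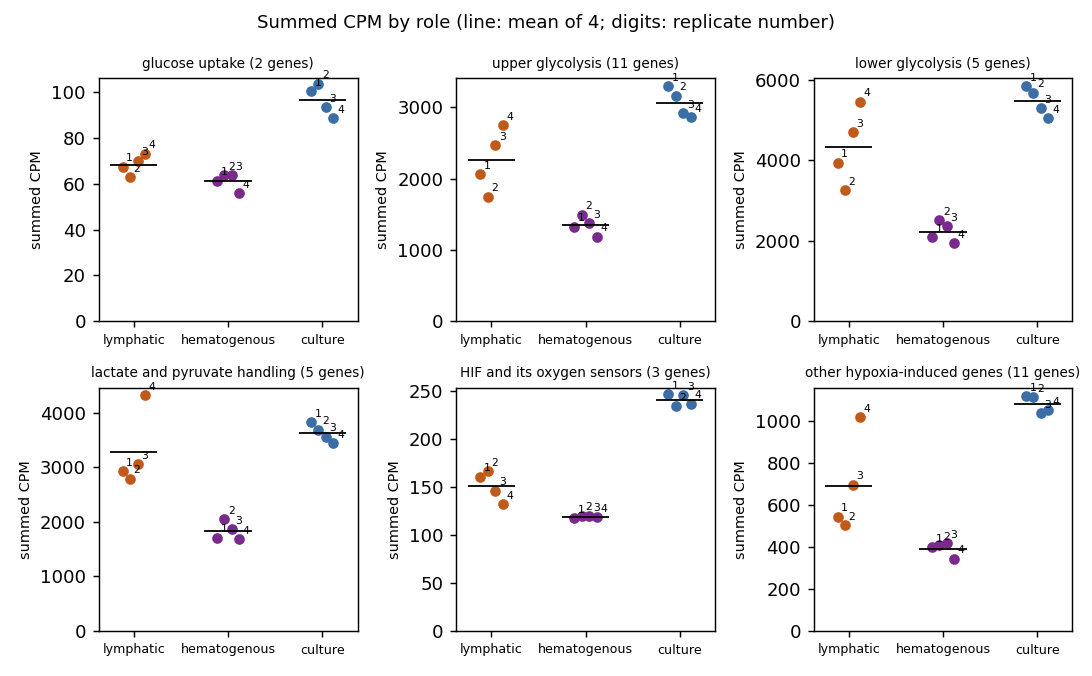
Summed CPM of the genes of each role in each library (points, with the replicate number) and the mean of each group of 4 (line). Hematogenous libraries lie below all culture libraries in every role. Lymphatic library 4 stands at the top of its group in every role but HIF and its oxygen sensors, where it is lowest, at 132 CPM. Its sums include 5455 CPM in lower glycolysis, 4326 CPM in lactate and pyruvate handling and 1019 CPM in other hypoxia-induced genes.

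Lymphatic libraries differed most among themselves. The coefficient of variation of the 34 genes had a median of 25.4% in lymphatic libraries, 12.8% in hematogenous libraries and 6.78% in culture libraries, while over all tested genes the medians were 26.4% in lymphatic, 12.4% in hematogenous and 10.4% in culture libraries. Lymphatic library 4 held the highest value of its group in 17 of 34 genes, and lymphatic library 2 the lowest in 17. Hematogenous library 2 was highest in 21 of 34 and hematogenous library 4, the shallowest, was lowest in 19. Without lymphatic library 4, all 23 lymphatic calls against culture, all 28 hematogenous calls and all 21 calls between routes were kept. Newly called then were 5 genes in lymphatic cells against culture, 3 in hematogenous cells and 2 between routes, each named above.

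Further genes of the same pathways were listed by function. Their calls are given with all 12 libraries only. Among those named with a lymphatic level, lymphatic library 4 stood apart from the rest of its group in Rpia (121 CPM against 74.1 to 80.2 CPM) and Crebbp (31.0 CPM against 47.3 to 51.2 CPM). It also stood apart in Ero1a (58.6 CPM against 89.8 to 110 CPM), Angptl4 (32.4 CPM against 20.5 to 24.1 CPM) and Pdha1 (256 CPM against 303 to 327 CPM). Its part in these calls was not tested. Of all tested genes, 13.4% rose and 13.0% fell in lymphatic cells against culture, and 13.9% rose and 13.9% fell in hematogenous cells. Between routes, 11.4% were higher and 10.9% lower in lymphatic cells. Among 24 further glycolytic isoenzymes and regulators, 9 were tested. Against culture, 1 of 9 rose (11.1%) and 2 fell (22.2%) in lymphatic cells, and 1 rose and 3 fell (33.3%) in hematogenous cells. Between routes, 3 were higher in lymphatic than in hematogenous cells (33.3%). With so few genes these shares lie near those of all genes or rest on 2 or 3 genes. The gene that rose was Pfkfb1 in both groups, named after its values were seen (4.05 ± 0.699 CPM in lymphatic cells, 4.57 ± 1.02 CPM in hematogenous cells and 2.59 ± 0.205 CPM in culture). Eno3, the muscle enolase, was at 14.8 ± 1.05 CPM in hematogenous cells against 35.6 ± 2.39 CPM in culture (log2 fold change -1.26 ± 0.19, adjusted p = 0.000211). Tigar, a phosphatase that draws down fructose 2,6-bisphosphate, was at 19.5 ± 2.46 CPM in hematogenous cells against 28.6 ± 2.15 CPM in culture (log2 fold change -0.55 ± 0.13, adjusted p = 0.00531). Of 24 tested further HIF targets, 1 rose (4.17%) and 9 fell (37.5%) in lymphatic cells, 12 fell (50%) and none rose in hematogenous cells, and 8 were higher (33.3%) and 1 lower (4.17%) in lymphatic than in hematogenous cells. Ero1a, an oxidase of disulphide formation, was at 90.4 ± 22.8 CPM in lymphatic cells against 41.0 ± 4.51 CPM in hematogenous cells (log2 fold change 1.14 ± 0.17, adjusted p = 0.000457), and Angptl4, a secreted lipase inhibitor, was at 25.1 ± 5.09 CPM in lymphatic cells against 9.02 ± 1.82 CPM in hematogenous cells (log2 fold change 1.46 ± 0.18, adjusted p = 0.000122). Gys1, the glycogen synthase, was at 10.3 ± 1.94 CPM in lymphatic cells against 24.4 ± 2.98 CPM in culture (log2 fold change -1.25 ± 0.16, adjusted p = 7.69e-05). Wsb1, a ubiquitin ligase subunit, was at 98.5 ± 9.36 CPM in lymphatic cells against 234 ± 10.0 CPM in culture (log2 fold change -1.25 ± 0.10, adjusted p = 5.87e-07) and at 100.2 ± 2.53 CPM in hematogenous cells against 234 ± 10.0 CPM in culture (log2 fold change -1.22 ± 0.10, adjusted p = 4.21e-07). Gbe1, the glycogen branching enzyme, was the HIF target lower in lymphatic than in hematogenous cells (log2 fold change -0.66 ± 0.14, adjusted p = 0.00432).

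Of 12 tested HIF subunits and regulators, 1 rose (8.33%) and 4 fell (33.3%) in lymphatic cells, 1 rose and 2 fell (16.7%) in hematogenous cells, and 2 were lower (16.7%) in lymphatic than in hematogenous cells. The hematogenous shares lay near those of all genes. Vhl, whose product marks hydroxylated HIF for degradation, was at 16.6 ± 1.12 CPM in lymphatic cells against 24.5 ± 1.80 CPM in culture (log2 fold change -0.56 ± 0.13, adjusted p = 0.00602). Siah2, a ligase that targets EGLN proteins, was at 29.3 ± 4.21 CPM in hematogenous cells against 51.1 ± 5.46 CPM in culture (log2 fold change -0.80 ± 0.13, adjusted p = 0.000472). Crebbp, a HIF coactivator, was at 44.3 ± 9.05 CPM in lymphatic cells against 76.3 ± 7.37 CPM in hematogenous cells (log2 fold change -0.79 ± 0.14, adjusted p = 0.00183). The 8 genes of the pentose phosphate pathway, which branches from glycolysis, gave 2 rises and 1 fall in lymphatic cells and 1 fall in hematogenous cells (12.5% for each single gene), too few to set apart from all genes. Rpia, which isomerises ribose phosphates, was at 88.9 ± 21.6 CPM in lymphatic cells against 57.0 ± 1.95 CPM in culture (log2 fold change 0.64 ± 0.14, adjusted p = 0.00393). Pyruvate entry and the TCA cycle burn what glycolysis delivers. Of 29 tested, 12 rose (41.4%) and 2 fell (6.90%) in lymphatic cells, and 8 were higher (27.6%) and 2 lower in lymphatic than in hematogenous cells. In hematogenous cells 4 rose and 4 fell (13.8% each), close to the share over all genes. Pdha1, the subunit of pyruvate dehydrogenase that PDK1 phosphorylates, was at 299 ± 30.6 CPM in lymphatic cells against 219 ± 8.67 CPM in culture (log2 fold change 0.45 ± 0.10, adjusted p = 0.00417) and at 305 ± 18.3 CPM in hematogenous cells against 219 ± 8.67 CPM in culture (log2 fold change 0.48 ± 0.10, adjusted p = 0.00225). Pcx, pyruvate carboxylase, was at 14.6 ± 1.48 CPM in hematogenous cells against 35.5 ± 4.57 CPM in culture (log2 fold change -1.28 ± 0.17, adjusted p = 5.23e-05).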

How the data were processed

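Per the submitters' processing notes, FastQC 0.11.9, Trimmomatic 0.39, HISAT2 2.1.0 and HTSeq 2.0.2 were used with GRCm39. The authors deposited raw counts per Ensembl gene, 1 table for each of 12 stranded, single-end libraries, with groups taken from the titles. Summary lines for reads without a gene, 30.3 to 36.5% of each library, stayed out of the fit. Counts were fitted across all 12 libraries by group with edgeR 4.0.16 (R 4.3.3; TMM, filterByExpr, quasi-likelihood F test) over 13535 genes, with Benjamini-Hochberg adjustment over all of them; standard errors are the log2 fold change over the square root of F, an approximation. Symbols and exon lengths came from GENCODE M21, an older build, and promoters from RefSeq (GRCm38.p6). The fit was also run on simulated counts, for lymphatic cells against culture only. In these each gene had the same spread in all groups and no library stood apart, unlike in the data. The run therefore cannot speak to the effect of either on the calls. All 37 genes are accounted for; from each further list, up to 3 called genes per contrast with a mean of at least 10 CPM were eligible for naming, by adjusted p, and some are shown. Members and lists were chosen with earlier results of these data known. Alternatives were DESeq2 1.42.0, limma-voom 3.58.1, other filters, scalings and sample sets, and leaving out each library. Replicates differed beyond sampling noise in every group. One of the B cell markers chosen is not reported here and is left out of their sum.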

Additional observations from a re-analysis of the deposited data

Results flagged for a closer look

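In 8 of 102 groups of 4 libraries examined, 1 library stood far from its group by Dixon's test, which by chance flags about 1 in 20 groups. Pfkl in hematogenous library 4 was at 52.8 CPM, with the other 3 libraries of the group at 77.7 to 81.6 CPM. Pfkp in lymphatic library 4 was at 173 CPM, with the other 3 libraries of the group at 317 to 331 CPM. Pfkfb4 in culture library 3 was at 10.0 CPM, with the other 3 libraries of the group at 8.07 to 8.24 CPM. Aldoc in hematogenous library 2 was at 1.35 CPM, with the other 3 libraries of the group at 0.950 to 0.978 CPM. Pgam1 in lymphatic library 2 was at 165 CPM, with the other 3 libraries of the group at 197 to 204 CPM. Slc16a1 in lymphatic library 3 was at 628 CPM, with the other 3 libraries of the group at 722 to 731 CPM. P4ha1 in hematogenous library 2 was at 30.4 CPM, with the other 3 libraries of the group at 25.5 to 26.0 CPM. Bhlhe40 in hematogenous library 1 was at 1.69 CPM, with the other 3 libraries of the group at 3.03 to 3.23 CPM.

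In 3 genes the change against culture had opposite signs in the 2 groups from lymph nodes, and the contrast of the groups themselves passed the edgeR test. Hk1 had a log2 fold change of -0.79 in lymphatic cells and 0.06 in hematogenous cells against culture, and of -0.85 in lymphatic against hematogenous cells (adjusted p = 0.00447). Pfkp had a log2 fold change of 0.29 in lymphatic cells and -0.27 in hematogenous cells against culture, and of 0.56 in lymphatic against hematogenous cells (adjusted p = 0.0343). Slc16a1 had a log2 fold change of 0.32 in lymphatic cells and -0.10 in hematogenous cells against culture, and of 0.42 in lymphatic against hematogenous cells (adjusted p = 0.00582). The opposite signs rest on 1 change against culture that passed for Hk1 and for Slc16a1, and on none that passed for Pfkp with all libraries.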

How the results depend on the processing

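Under 20 alternatives (8 of filter, scaling, test, sample set or replicate block, and 12 that left out 1 library), 69 of the 102 gene results kept their direction and call. All 28 calls in hematogenous cells against culture held under every alternative, as did 16 of 23 in lymphatic cells against culture and 14 of 21 between routes. The 1 gene called higher in lymphatic cells against culture became 0 with no filter on low counts, with only the 8 libraries compared and with the replicate block. With only the 8 libraries compared, genes called in all changed to 6344 in hematogenous cells against culture (3760 with all 12) and to 1734 between routes (3012 with all 12), and 3 listed genes were called higher in hematogenous cells (1 with all 12); this fit drops the lymphatic or the culture libraries from the estimate of spread.

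When 1 library was left out, the genes called in all ranged over 2664 to 4908 in lymphatic cells against culture, 3125 to 5930.0 in hematogenous cells against culture and 2002 to 4333 between routes. Listed genes called higher ranged over 0 to 3, 1 to 2 and 16 to 22 in those contrasts, and listed genes called lower over 17 to 25, 27 to 29 and 1 to 1. Directions that reversed were all of results that did not pass: Mif in lymphatic cells against culture (-0.34 with limma-voom, -0.10 with the replicate block, -0.70 to 0.46 with 1 library left out), and, with 1 library left out, Hk1 in hematogenous cells against culture (-0.019 to 0.13), Pfkfb4 between routes (-0.43 to 0.047) and Vegfa between routes (-0.17 to 0.037). The cause was not tested. Replicate numbers did not pair the libraries: deviations of same-numbered libraries correlated at -0.181 to 0.0919, with 0 of 12 pairs over 0.1. With the replicate block, genes called in all were 2960.0, 3341 and 2309 in lymphatic cells against culture, hematogenous cells against culture and between routes. The depth limits Egln3, P4ha2 and Ldhb most, and a route effect cannot be told apart from the day.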
